A study of Mus musculus with 11 samples.

Results

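The CCN family of matricellular proteins was followed through endothelial, mural and fibroblast-like cells of the mouse cerebral cortex. The genes Cyr61, Ctgf, Nov, Wisp1 and Wisp2 (now also named Ccn1 to Ccn5) were taken by symbol from the gene column of the deposited count tables, where they made up 5 of 26921 genes. CCN proteins are secreted and lie in the extracellular matrix without being a structural part of it. They bind integrins and heparan sulfate proteoglycans on the cell surface and modify the signals of growth factors such as TGF-beta, BMPs and VEGF. Ctgf and Cyr61 are widely used as target genes of the co-activators YAP and TAZ, which act through TEAD transcription factors, and both are also induced quickly by stretch, serum and TGF-beta, whereas Wisp1 and Wisp2 were named as genes induced by Wnt1.

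Single cells came from the cortex of C57BL/6 mice after myelin depletion, which removes most neurons and oligodendrocytes, and were captured with the 10x 3′ v2 assay, in which a unique molecular identifier (UMI) lets each captured transcript be counted once. The libraries comprised 4 of juvenile cortex (postnatal day 10), 3 of adult (7 to 11 weeks), 2 of aged (18 months) and 2 from adult mice of 7 to 11 weeks at the peak of experimental autoimmune encephalomyelitis (EAE), a model of multiple sclerosis in which mice are immunised with a myelin peptide in complete Freund's adjuvant and given pertussis toxin. Tissue of 6 mice was pooled for each juvenile or adult sample and of 3 mice for each aged or EAE sample, and the adult mice served as controls for the 3 other groups, without a group given adjuvant and toxin alone. Levels are given as CPM, the UMIs of a gene per 1000000 UMIs of the same cells in 1 library, and libraries are listed by replicate number.

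Of 54646 barcodes, 50625 cells passed the study's filters, among them 20671 endothelial cells (ECs), 1382 mural cells and 1120 fibroblast-like cells (Fibro), 952 of which were juvenile, 58 adult, 74 aged and 36 from EAE. Total UMIs per library ranged from 15755504 to 34326349. The libraries Juvenile 1 and 2, Juvenile 3 and 4, and Adult 2 and 3 differed by little more than sampling noise and were each counted as 1 sample, so that every group had 2 samples in the tests, and p-values measure the spread between these samples, which may be technical. The EAE pair and the aged pair were also far closer to each other than distinct samples were, and each of these groups may hold 1 sample. With these pairs summed as well, which leaves 1 EAE and 1 aged sample that are assumed to vary like the other groups, Ctgf and Nov in EAE ECs were still past the threshold, whereas the calls in EAE fibroblast-like cells and those of Ctgf and Wisp1 in juvenile ECs were lost, and Nov in juvenile ECs was gained. Calls between cell types that were lost this way are given beside them. Adult 1 stood apart from the other adult libraries, and results that rest on it are given with and without it. The summed level of 5 choroid plexus epithelium markers in ECs, a sign of free RNA, was 16756 to 49316 CPM in adult libraries against 6656 to 6833 in EAE, 5579 to 7659 in aged and 3741 to 8541 in juvenile libraries. The 15 immediate early and dissociation genes summed to 5109 to 7030 CPM in juvenile ECs, 9883 to 20386 in adult, 15862 to 15921 in aged and 18012 to 18453 in EAE ECs. The part of either difference in the results below was not tested.

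In GRCm38 with the GENCODE M21 annotation, the 5 protein-coding genes lie on 4 chromosomes and each has at most 5 exons. Cyr61 (ENSMUSG00000028195.4) is at chr3:145646976-145649981 on the minus strand, Ctgf (ENSMUSG00000019997.11) at chr10:24595442-24598683, Nov (ENSMUSG00000037362.8) at chr15:54745702-54754039, Wisp1 (ENSMUSG00000005124.10) at chr15:66891320-66923201 and Wisp2 (ENSMUSG00000027656.7) at chr2:163820861-163833146, the last 4 on the plus strand. The 250 bases before the start of Cyr61 are shown because this gene is a common readout of TEAD-dependent transcription, with the core TEAD motif in capitals. They are RefSeq sequence (GRCm38.p6, chr3:145649986-145650235, minus strand, written 5′ to 3′ along the gene). Distances count from the RefSeq start, which lies a few bases upstream of the GENCODE one.

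Cyr61 promoter: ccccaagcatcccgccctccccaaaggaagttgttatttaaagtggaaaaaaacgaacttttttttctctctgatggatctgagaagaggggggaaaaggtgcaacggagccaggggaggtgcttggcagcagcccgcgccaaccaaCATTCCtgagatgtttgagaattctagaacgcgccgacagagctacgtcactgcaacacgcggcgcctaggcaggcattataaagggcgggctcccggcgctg

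The capitals mark 1 match to GGAATG, read on the opposite strand as CATTCC, 103 to 98 bases before the start. Either strand of 12.642% of 32851 mouse promoters in the same RefSeq table holds these letters, so a single match is common. Neither the AP-1 motif TGANTCA (6.749% of promoters, either strand) nor a CArG box (1.467%) was found in this window.

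The members differed in the cells that held their UMIs. Cyr61 and Ctgf were measured in all vascular cell types, and ECs held 65.6% of the 75938 Cyr61 UMIs and 82.2% of the 14130 Ctgf UMIs. Nov was mainly found in fibroblast-like cells, which held 86.2% of its 6999 UMIs. The study used Nov as a marker of its own fibroblast-like cells. Of the fibroblast-like clusters described below, the one with more Lum, Pdgfra and Slc6a13 held 4 juvenile Nov UMIs and 0 in the other groups. Wisp1 and Wisp2 were rare, with 507 and 420 UMIs in all.

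**Figure D1:**
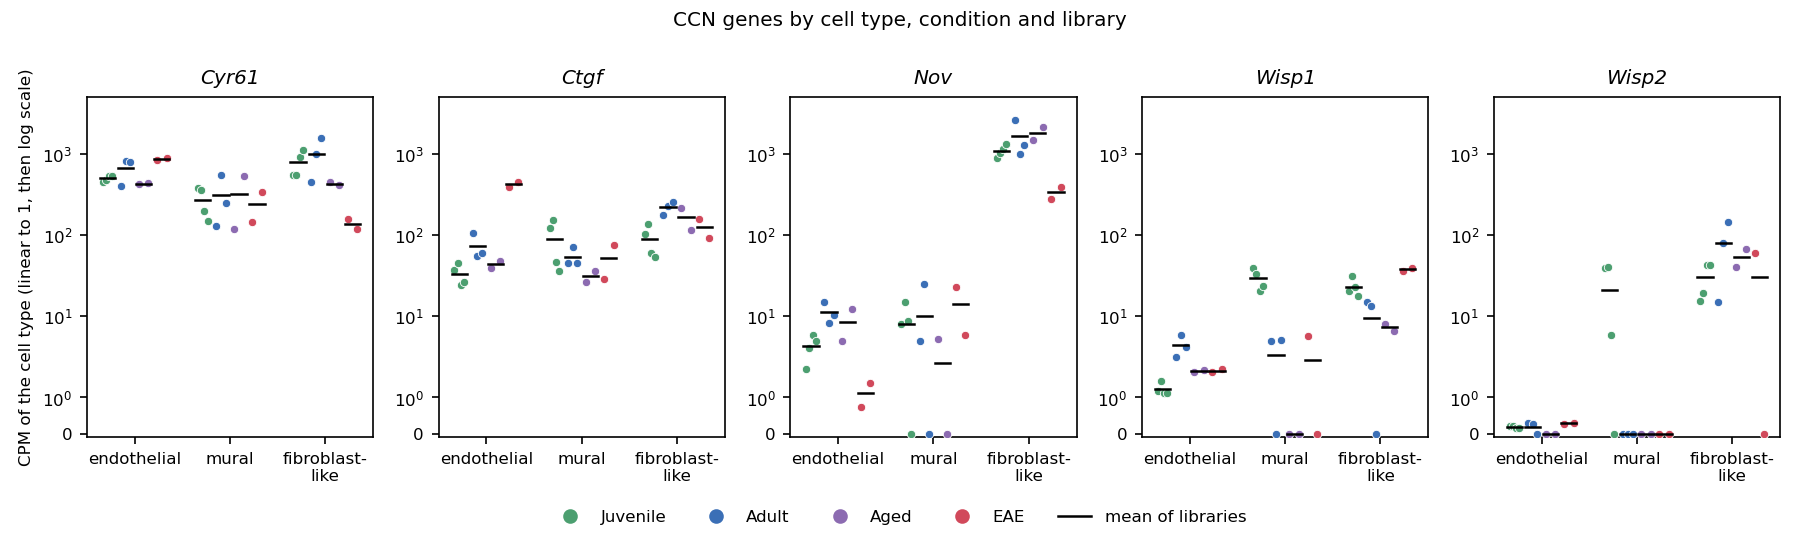
Level of each CCN gene in ECs, mural cells and fibroblast-like cells, in CPM on an axis that is linear below 1 and logarithmic above, with 1 point per library and a bar at the mean of each group. Ctgf in the 2 EAE libraries, at 387 and 453 CPM, lies above every other EC point, and Nov lies above 270 CPM in every fibroblast-like point.

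Cyr61 codes for an integrin ligand with a role in angiogenesis and vessel integrity. Among the cell types with at least 10 cells in a library, it was highest in ependymal cells, at a median of 1225 CPM over 6 libraries (960 to 1561). Fibroblast-like cells followed with a median of 549 CPM over 11 libraries (117 to 1558) and ECs with 525 (404 to 881), and these ranges overlapped. Mural cells (median 248, 117 to 543), astrocytes (248, 147 to 718), choroid plexus epithelium (212, 91.3 to 265) and perivascular macrophages (171, 71.6 to 401) formed a lower group with overlapping ranges. In microglia the median was 26.4 CPM. Across libraries with the library as a block, 3 of 5 CCN genes differed between mural cells and ECs by edgeR's quasi-likelihood test (adjusted p under 0.05), where 49.2% of 9239 genes tested did. Cyr61 was lower in mural cells, at -1.36 on the log2 scale (SE 0.41, adjusted p = 0.0123).

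Ctgf, which codes for a matrix protein best known from wound healing and fibrosis, had its widest range in ECs. Its median was 138 CPM in fibroblast-like cells (53.8 to 251), 47.8 in ECs (24.2 to 453) and 45.6 in mural cells (26.6 to 153), and these ranges overlapped. Ependymal cells had a median of 35.7 CPM (19.1 to 58.4) and choroid plexus epithelium 5.85 (2.11 to 13.4), while microglia stayed at or below 11.3. The difference from ECs did not pass the test for mural cells (log2 fold change -0.67, SE 0.58, adjusted p = 0.372) or for fibroblast-like cells (0.49, SE 0.56, adjusted p = 0.515).

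Nov, the CCN protein linked to growth restraint and stem cell maintenance, Wisp1 and Wisp2 were the 3 members that separated fibroblast-like cells from ECs, in a comparison that called 50.5% of genes. Nov had a median of 1138 CPM in fibroblast-like cells (278 to 2627), and its log2 fold change was 7.58 over ECs (SE 0.36, adjusted p = 4.28e-12) and 7.00 over mural cells (SE 0.42, adjusted p = 5.09e-10). Wisp1 was higher than in ECs in fibroblast-like cells (2.68, SE 0.63, adjusted p = 0.000952) and in mural cells (2.04, SE 0.60, adjusted p = 0.00644). Of the 118 Wisp1 UMIs in fibroblast-like cells 108 were juvenile, as were 952 of the 1120 cells. Only 2 were adult and 2 aged, so the levels in those groups are loosely set. The mural difference was a juvenile one, since juvenile libraries held 85 of the 89 mural Wisp1 UMIs, and adult mural cells had 4.95, 0 and 5.06 CPM against 3.19, 5.86 and 4.18 in adult ECs. Wisp2, a member without the carboxy-terminal domain of the other CCN proteins, was higher than in ECs in both, by 7.71 (SE 0.87, adjusted p = 3.33e-07) and 5.08 (SE 1.07, adjusted p = 0.000514). All 81 mural Wisp2 UMIs were juvenile too. With the juvenile libraries left out, an alternative added after the data had been seen, Wisp1 had too few UMIs for a test, Wisp2 remained called in fibroblast-like cells (51.9% of genes called) and not in mural cells, which then held 0 UMIs (57.5%), and Nov in fibroblast-like and Cyr61 in mural cells remained called. ECs held 13 Wisp2 UMIs in all and never exceeded 0.290 CPM, so the sizes of these Wisp2 differences are loosely set. Between fibroblast-like and mural cells, 2 of 5 members differed, Nov and Wisp2 (2.63, SE 0.84, adjusted p = 0.0189), with 37.3% of genes called, and the Wisp2 call was lost without Aged 1 (adjusted p = 0.058), Aged 2 (0.065) or EAE 1 (0.057), with every library on its own (1.6, 0.066), with all near-identical pairs summed (2.19, 0.098) and without the filter on low counts (2.26, 0.086).

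The study asked how these cells change with age and in neuroinflammation, and the clearest change among the CCN genes was that of Ctgf in ECs in EAE. The study itself reported Ctgf among the genes raised by EAE in its reactive endothelial venules, a small group of venous ECs. That test was run over cells, and the values below are for all ECs. Ctgf was at 105, 54.4 and 60.1 CPM in the adult libraries and at 387 and 453 CPM in the EAE libraries. Both EAE libraries were above every adult, juvenile and aged library, without overlap. The log2 fold change was 2.62 (SE 0.32, adjusted p = 0.00256), in a comparison in which 23.9% of 14082 genes were called and 2 of the 4 CCN genes tested, Ctgf and Nov. Ctgf remained past the threshold under each of the 22 alternatives, including the fit without Adult 1, with log2 fold changes of 2.30 to 3.62.

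The gain was present in arteries, capillaries and veins. Subclusters of ECs were named from marker genes, with the CCN genes left out of the clustering. Each group was clustered on its own, so a subset is not the same cluster in adult and EAE cells, and venous ECs were 275 of 4958 adult but 865 of 6952 EAE ECs, 429 of them in a cluster led by Lcn2 and Serpina3n. The changes below can therefore include a change in which cells carry the name. In arterial ECs Ctgf was at 80.2, 52.0 and 40.2 CPM in adult and 221 and 322 CPM in EAE libraries. In capillary ECs the adult libraries had 129, 66.0 and 73.9 CPM and the EAE libraries 424 and 496. In venous ECs the values were 59.5, 33.5 and 47.1 CPM in adult and 467 and 518 in EAE. The groups did not overlap in any of the 3 subsets. In fits of each subset alone, which were added after the data had been seen, the log2 fold change was 2.30 in arterial ECs (11.4% of genes called), 2.37 in capillary ECs (21.1%) and 3.62 in venous ECs (15.1%), each past the threshold. Whether the subsets differed in this change was not tested. Several other cell types also had more Ctgf in EAE, with 7.61 and 11.3 CPM in microglia (0 to 2.29 in adult), 16.3 and 19.8 in T and NK cells (0 to 5.21), 14.8 and 18.3 in monocytes and macrophages (0 to 6.63) and 18.3 and 24.0 in perivascular macrophages (0 to 6.47). Choroid plexus epithelium had 13.2 and 13.4 CPM in EAE (5.52 to 7.75 in adult). Neurons had 30.4 and 36.1 CPM, from 6 UMIs (0 in adult). Others did not, with 91.2 and 157 CPM in fibroblast-like cells (178 to 251 in adult), 0 and 9.85 in astrocytes (0 to 16.1) and 0 in B cells (0 to 11.7). The part of free RNA in these values was not tested.

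**Figure D2:**
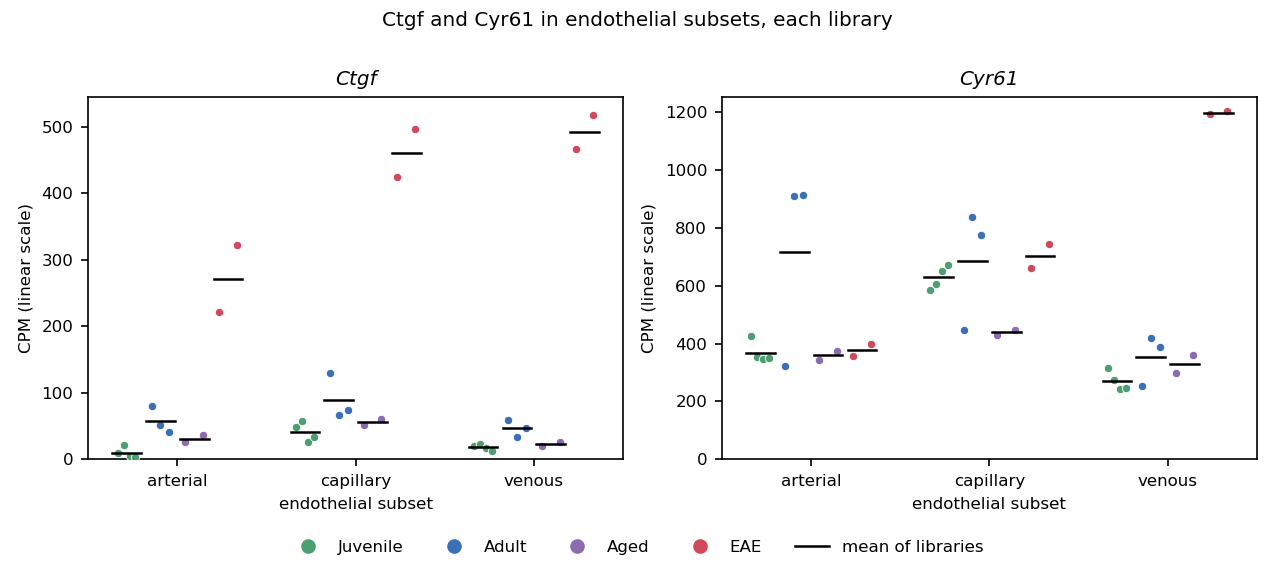
Ctgf (left) and Cyr61 (right) in arterial, capillary and venous ECs, in CPM on a linear axis that starts at 0, with 1 point per library and a bar at the mean of each group. The EAE points of Ctgf stand above the others in all 3 subsets, at 221 to 518 CPM, whereas those of Cyr61 do so only in venous ECs, at 1192 and 1203 CPM. Tip-like ECs are not shown.

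More ECs carried the transcript as well. After each cell was thinned to 1500 UMIs, a Ctgf UMI was found in 29.5% and 33.2% of ECs in the EAE libraries and in 6.27% to 10.6% in adult, 5.16% to 6.55% in aged and 3.45% to 5.91% in juvenile libraries. In microglia, taken as a type that should lack the gene, the share was at most 1.2%, at median depths of 2169 to 3481 UMIs per cell against 2235 to 8327 in ECs. In EAE libraries it was 1.41% to 1.78% in T and NK cells, 1.68% to 2.04% in monocytes and macrophages, 1.07% to 2.48% in neutrophils and 2.15% to 3.43% in perivascular macrophages. Unthinned, the share in ECs was 39.9% and 44.7% in EAE and 12.4% to 20.6% in adult libraries. The thinning left out 292 of 4958 adult and 881 of 6952 EAE ECs.

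Cyr61 differed from its relative. In all ECs it was at 404, 821 and 785 CPM in adult and 836 and 881 CPM in EAE libraries, where the EAE libraries lay just above Adult 2 and 3 and far above Adult 1. The log2 fold change of 0.70 (SE 0.30) did not pass the edgeR test (adjusted p = 0.129), and it was 0.28 without Adult 1. Cyr61 did pass with DESeq2 (0.69, adjusted p = 0.018) and without the filter on low counts (0.73, adjusted p = 0.00013). Among the 3 subsets venous ECs were the exception, with 251, 420 and 386 CPM in adult against 1192 and 1203 CPM in EAE libraries. The log2 fold change of 1.90 passed the test in the added fit. Whether the subsets differed in this change was not tested. In EAE libraries 706 ECs were named tip-like, against 0 in adult libraries, and had Cyr61 at 1580 and 1576 CPM. The subsets of adult and EAE libraries therefore do not cover the same cells. In arterial ECs the adult libraries had 321, 911 and 915 CPM and the EAE libraries 357 and 399, and in capillary ECs the values were 445, 838 and 775 against 661 and 743, neither past the threshold. The immediate early genes, a family Cyr61 itself is often counted with, summed to 21623 to 33695 CPM in venous ECs of adult and 25228 to 27201 of EAE libraries, which overlap.

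Nov was rare in ECs and fell in EAE. It was at 14.8, 8.31 and 10.4 CPM in adult and 0.739 and 1.51 CPM in EAE libraries, from 51, 61 and 77 UMIs against 8 and 16, with no overlap. The log2 fold change was -3.16 (SE 0.57, adjusted p = 0.0062), and the call was lost without EAE 1 (adjusted p = 0.061) and in arterial (-2.40, adjusted p = 0.099) or capillary ECs alone (-2.33, adjusted p = 0.14). In microglia Nov was likewise lower, at 1.52 to 4.09 CPM in adult and 0 to 0.211 CPM in EAE libraries, and the 7 fibroblast markers in ECs summed to 9.16 to 13.2 CPM in adult and 2.17 to 2.31 CPM in EAE libraries. Their part in the fall of Nov was not tested. Its endothelial level was highest in arteries among the 3 subsets, at 46.5, 14.1 and 26.1 CPM in the adult libraries, against 0.963 to 1.41 CPM in capillary ECs.

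Wisp1 in ECs was at -0.81 on the log2 scale in EAE (adjusted p = 0.127), with 3.19, 5.86 and 4.18 CPM in adult and 2.03 and 2.26 CPM in EAE libraries. Without Adult 1 this passed the threshold, at -1.04 (adjusted p = 0.049, 21.8% of genes called), as it did with every library on its own (-0.88, adjusted p = 0.047), but in capillary ECs alone it was 0.0012. Wisp2 was too low in ECs to be tested, with 0 to 3 UMIs in a library.

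With age, ECs gained Ctgf and Wisp1 between the juvenile and the adult cortex. Ctgf was at 36.9, 44.8, 24.2 and 26.1 CPM in juvenile libraries, all below the adult values of 105, 54.4 and 60.1. Its log2 fold change in juvenile against adult ECs was -1.17 (SE 0.33, adjusted p = 0.0341). Wisp1 was at 1.21, 1.61, 1.15 and 1.15 CPM in juvenile and 3.19, 5.86 and 4.18 CPM in adult libraries, again without overlap (log2 fold change -1.66, SE 0.38, adjusted p = 0.0076). These 2 of the 4 members tested stand beside 34.9% of genes called in this comparison. Neither call was firm. That of Wisp1 was lost with all near-identical pairs of libraries summed (adjusted p = 0.055) and in arterial ECs alone (-0.37, adjusted p = 0.72). That of Ctgf was lost with the same pairs summed (adjusted p = 0.072), with cells named by marker score (0.13), in capillary ECs alone (0.076), and without Adult 1 (-0.74, adjusted p = 0.063), Juvenile 1 (0.059) or either EAE library (0.052 and 0.051), although each kept the direction.

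Nov and Cyr61 did not pass the edgeR test between juvenile and adult ECs. Nov was at 2.23, 4.01, 5.87 and 4.93 CPM in juvenile ECs, below every adult library, and its log2 fold change of -1.31 had an adjusted p of 0.0679. This lay close to the threshold, and 9 of 21 alternatives called Nov, 1 of which, capillary ECs alone, had the opposite direction. The others included DESeq2 (-1.33, adjusted p = 0.039) and every library on its own (-1.22, adjusted p = 0.016). Its arterial and capillary values went in opposite directions, with 0 to 10.5 CPM in juvenile against 14.1 to 46.5 CPM in adult arterial ECs, but 2.7 to 6.1 against 0.963 to 1.41 CPM in capillary ECs. In capillary ECs alone Nov was higher in juvenile cells and passed the test (1.91, adjusted p = 0.043, 33.5% of genes called). Over all 11 libraries Nov reached 5.24 CPM in microglia and 6.89 CPM in choroid plexus epithelium, near the juvenile capillary values. The part of free RNA in these values was not tested. Cyr61 was at 453, 479, 525 and 536 CPM in juvenile libraries, between Adult 1 and the other adult libraries (log2 fold change -0.19, adjusted p = 0.664). Without Adult 1 it was -0.61 and passed (adjusted p = 0.0039, 32.5% of genes called).

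Between adult and aged ECs, edgeR called 3.27% of genes and 0 of the 4 CCN genes tested at an adjusted p under 0.05, 2 of which had an unadjusted p under 0.05, and DESeq2 called 1, Ctgf. This DESeq2 count and those of members below stand without a DESeq2 share over all genes and cannot be weighed against one. Ctgf was at 38.7 and 47.8 CPM in aged libraries, below the 3 adult ones (log2 fold change -0.85, adjusted p = 0.203), and Cyr61 at 419 and 433 CPM, between Adult 1 and the others (-0.51, adjusted p = 0.368). Without Adult 1 the Cyr61 difference was -0.93 (adjusted p = 0.0035, 6.09% of genes called). Nov was at 4.94 and 12.2 CPM and Wisp1 at 2.08 and 2.16 CPM in aged ECs.

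**Figure D3:**
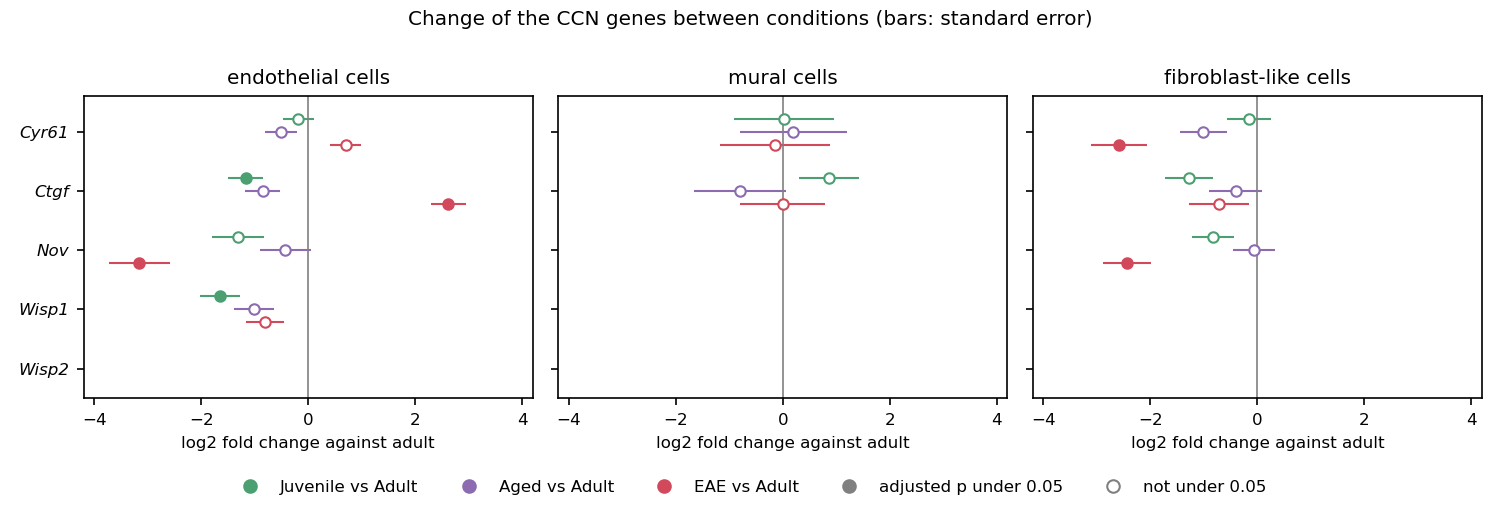
Log2 fold change of each CCN gene against adult in ECs, mural cells and fibroblast-like cells, with bars for the standard error of the edgeR fit and filled points for an adjusted p under 0.05. Genes without a point had too few UMIs to be tested, and the filled points are Ctgf and Wisp1 in juvenile ECs, Ctgf and Nov in EAE ECs, and Cyr61 and Nov in EAE fibroblast-like cells.

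Along the vessel tree, 3 of 4 CCN genes differed between arterial and capillary ECs of the same libraries, where 23.0% of 11116 genes did. Ctgf was lower in arteries, at -1.01 on the log2 scale (SE 0.22, adjusted p = 0.00276), and in every library its arterial level was below the capillary one. Nov (2.91, SE 0.49, adjusted p = 0.000237) and Wisp1 (1.51, SE 0.50, adjusted p = 0.0341) were higher in arteries, and the Wisp1 call was lost without Adult 1 (adjusted p = 0.061) or Adult 2 (0.095) and with all near-identical pairs summed (0.054). The order of Nov did not hold in juvenile libraries, with 1.54, 0, 10.5 and 4.10 CPM in arterial against 3.32, 2.7, 3.95 and 6.10 CPM in capillary ECs, and without them its log2 fold change was 4.07. Nov reached 5.24 CPM in microglia and 6.89 CPM in choroid plexus epithelium, and the part of free RNA in the juvenile values was not tested. Wisp1 was at 5.92 to 9.56 CPM in juvenile arterial ECs and 0 to 0.465 CPM in juvenile capillary ECs. In adult libraries it was at 6.41, 16.9 and 8.46 CPM in arterial and 1.88, 3.14 and 3.61 in capillary ECs. Aged and EAE libraries did not share this order throughout, with arterial 0.541 and 2.75 against capillary 2.48 and 1.97 CPM in aged and 1.42 and 3.8 against 2.55 and 2.78 CPM in EAE libraries. With the juvenile libraries left out the Wisp1 call was lost (0.86, adjusted p = 0.080), while Ctgf and Nov were still called (21.6% of genes called). Between venous and capillary ECs 23.6% of genes differed and 0 of the 4 members by edgeR, 1 of which had an unadjusted p under 0.05, and by DESeq2 1 did, Ctgf. The fit spans groups that did not share an order, given here as means of 2 samples. Ctgf was at 18.1 CPM in venous against 41.3 in capillary juvenile ECs, 50.1 against 99.6 in adult and 23.2 against 55.9 in aged. In EAE it was at 493 against 460 CPM. Cyr61 was at 269 against 629, 327 against 626 and 329 against 438 CPM in the same order, but 1198 against 702 in EAE. In the edgeR fit the log2 fold change for Ctgf was -0.57 (adjusted p = 0.0745), which passed without EAE 1 (-0.78, adjusted p = 0.027) or EAE 2 (-0.73, adjusted p = 0.048).

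Within mural cells, both testable CCN genes were higher in smooth muscle cells than in pericytes. Cyr61 was higher in smooth muscle cells by 2.41 on the log2 scale (SE 0.34, adjusted p = 5e-05) and Ctgf by 1.63 (SE 0.32, adjusted p = 0.000207), 2 of 2 members tested, in a comparison that called 38.0% of genes. Cyr61 ranged from 195 to 757 CPM in smooth muscle and from 30.8 to 311 CPM in pericytes over the 11 libraries. All 15 immediate early and dissociation genes were also higher in smooth muscle. All 81 mural Wisp2 UMIs came from juvenile smooth muscle, at 112, 95.4, 15.1 and 0 CPM, and none from any pericyte. Juvenile and later smooth muscle lay in different subclusters, with 177 of 180 juvenile cells in one led by Actg2, Cnn1 and Eln and 142 of the 149 adult, aged and EAE cells in another led by Sncg, Pln and Pdlim3. With the juvenile libraries left out, Cyr61 remained called in smooth muscle against pericytes, and Ctgf had too few UMIs for a test.

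**Figure D4:**
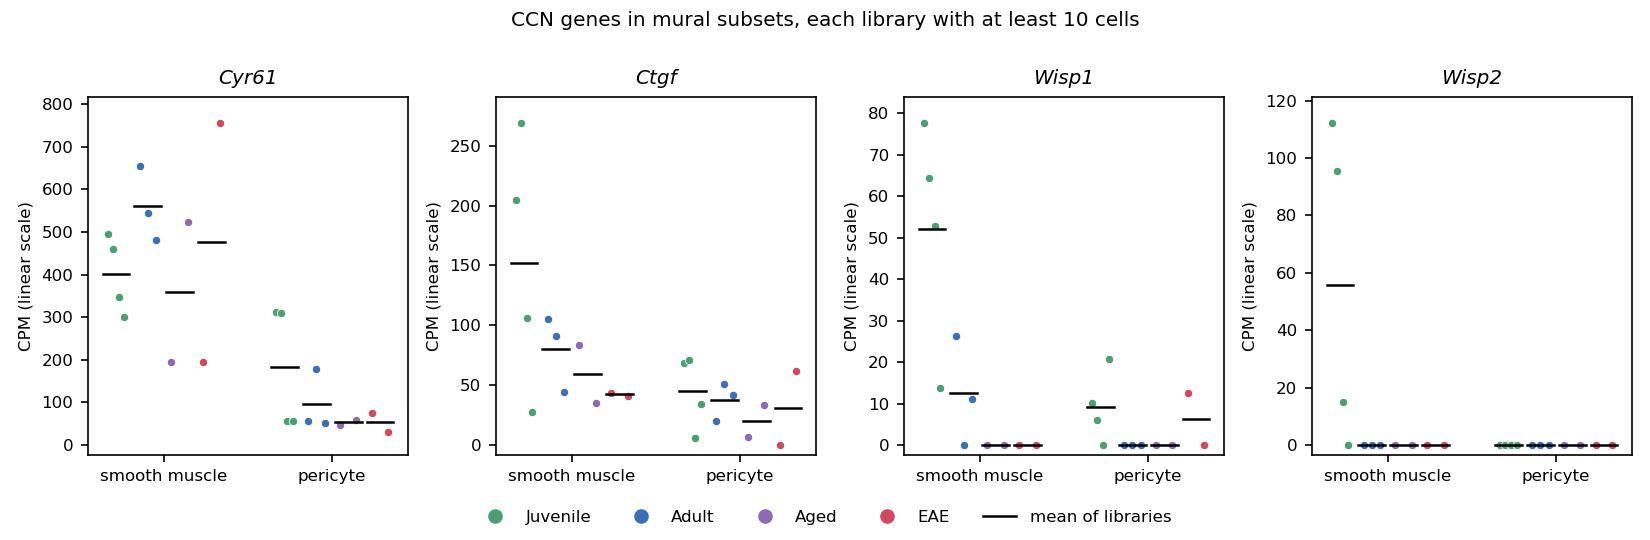
Cyr61, Ctgf, Wisp1 and Wisp2 in smooth muscle cells and pericytes, in CPM on linear axes, with 1 point per library and a bar at the mean of each group. Wisp2 is above 0 only in juvenile smooth muscle, and Wisp1 reaches 77.8 CPM there against 0 to 26.2 CPM in adult libraries.

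Between conditions, no CCN gene passed the test in mural cells. Only Cyr61 and Ctgf had enough UMIs, and edgeR called 0 of 2 for juvenile (17.8% of genes), aged (0.0343%) and EAE mural cells (0.942%), with no unadjusted p under 0.05 among them and 0 calls by DESeq2. Ctgf was at 120, 153, 47.0 and 35.7 CPM in juvenile, 44.6, 70.4 and 45.6 in adult, 26.6 and 35.9 in aged and 28.5 and 75.3 CPM in EAE mural cells. Juvenile 1 and 2 were above every adult library, Juvenile 3 was within the adult range and Juvenile 4 was below it. Wisp1 was at 39.5, 32.8, 20.6 and 23.8 CPM in juvenile mural cells and at 0 to 5.71 CPM in the 7 other libraries.

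The change of Ctgf and Wisp1 differed between mural cells and ECs when the difference itself was tested. In EAE the log2 fold change of Ctgf was lower in mural cells than in ECs by -2.64 (SE 0.41, adjusted p = 1.39e-07), 1 of 4 members called beside 1.74% of genes, and this call held under the 17 alternatives run. Naming cells by marker score was not among these alternatives. In the edgeR fit of mural cells alone that setting gave 1.64 for Ctgf in EAE (adjusted p = 0.18), against -0.0021. The 205 EAE mural cells held 18 Ctgf UMIs. For juvenile against adult the difference was 1.96 for Ctgf (SE 0.32, adjusted p = 6.4e-08) and 4.54 for Wisp1 (SE 0.95, adjusted p = 9.04e-05), 2 of 4 members beside 6.09% of genes. DESeq2 did not call this Ctgf difference (1.80, adjusted p = 0.15). The makeup of the mural class moved as well. Smooth muscle cells were 180 of 514 juvenile, 61 of 406 adult and 56 of 205 EAE mural cells. In smooth muscle alone Ctgf was at 77.9 and 240.1 CPM in the 2 juvenile samples and at 64.2 and 104.9 CPM in the 2 adult samples. In pericytes alone it was at 18.6 and 69.96 CPM in the 2 juvenile samples and at 19.7 and 46.7 CPM in the 2 adult samples, and the groups overlap in both. Wisp1 was higher in juvenile than adult mural cells, from 85 and 3 UMIs, and lower in juvenile than adult ECs. Mural cells alone had too few UMIs for a test of Wisp1, so the size of its difference is loosely set. In the fits of mural cells alone the Ctgf change had larger SEs, 0.79 in EAE and 0.57 in juvenile cells. The SEs and adjusted p-values of the Ctgf differences may therefore understate the spread between mural samples. Nov did not pass the edgeR test of the difference, at 3.87 in EAE (SE 1.21, unadjusted p = 0.0014, adjusted p = 0.071). In juvenile cells it was at 1.63 (SE 0.81, unadjusted p = 0.044, adjusted p = 0.29). Mural cells held 7 adult and 5 EAE Nov UMIs. For aged against adult edgeR and DESeq2 each called 0 of 4 members, with no unadjusted p under 0.05 in edgeR and 0.373% of genes called.

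Nov was found in the fibroblast-like cells of every library, and in EAE both Nov and Cyr61 were lower. Nov was at 2627, 1001 and 1290 CPM in adult and 278 and 391 CPM in EAE libraries (log2 fold change -2.44, SE 0.44, adjusted p = 0.0367). Cyr61 was at 445, 987 and 1558 CPM in adult and 157 and 117 CPM in EAE libraries (-2.59, SE 0.52, adjusted p = 0.0481). In both cases the groups did not overlap, and 2 of the 3 members tested were called beside 1.15% of 2948 genes. These calls rest on 18 cells in each EAE library and 17 to 21 in each adult library. Both were lost without Adult 3 (adjusted p = 0.052 for each), without Aged 2 (0.058 for Nov, 0.068 for Cyr61), and without EAE 1 (0.19 and 0.20) or EAE 2 (0.11 and 0.18), and the Cyr61 call also without Adult 2 (0.0504), Aged 1 (0.067) or Juvenile 3 (0.055), with every direction kept.

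Among all cells the fibroblast-like cells formed a pair of clusters, and the makeup of the class moved with EAE. Cluster 1 was led by Igfbp6, Slc47a1, Bnc2, Penk and Crabp2 and had Dcn at 3403 CPM but Lum at 69.4, Pdgfra at 15.2 and Slc6a13 at 1.49 CPM. Cluster 2, led by Lum, Coch, Slc6a13, Col1a1 and Moxd1, had Dcn at 3397, Lum at 1454, Slc6a13 at 1075 and Pdgfra at 310 CPM. Cluster 1 therefore lacked most of the signal of 3 of the 7 fibroblast markers, and it is called by its number and leading genes. It held 82.6% of juvenile, 86.2% of adult and 78.4% of aged fibroblast-like cells, but 14 of 36 cells (38.9%) in EAE.

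Clustered by themselves, the fibroblast-like cells divided further, and adult and EAE cells lay mostly in different subclusters. Of the adult cells 26 of 58, but only 2 of 36 EAE cells, were in a subcluster with choroid plexus markers such as Ttr, Folr1 and Enpp2 among its leading genes and a median of 1702 UMIs per cell. EAE cells were mainly in a subcluster led by Inmt and Coch (21 of 36, against 5 of 58 adult cells) and in one led by Prg4 and Dmkn (12 of 36 and 12 of 58). In the cells with choroid plexus markers Nov was at 2889 CPM in adult, 3189 in aged and 3186 CPM in EAE libraries, the last from 12 UMIs of 2 cells. With that subcluster left out, an alternative added after the data had been seen, Nov was at 2447, 811 and 1056 CPM in adult and 278 and 247 CPM in EAE libraries, and Cyr61 at 496, 1117 and 1753 against 157 and 123 CPM. Both remained past the threshold, at -2.64 (SE 0.49, adjusted p = 0.0436) for Nov and -2.73 (SE 0.53, adjusted p = 0.0445) for Cyr61, with 1.36% of genes called and 9 to 12 adult cells in a library.

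Nov lay in cluster 1. With libraries of a group pooled, cluster 1 had 1415 CPM in juvenile, 2213 in adult (exact 95% Poisson interval 1978 to 2467, counting error only), 2830 in aged and 979 in EAE cells (733 to 1281). Cluster 2 had 3.8 CPM in juvenile cells and 0 UMIs in the other groups. Cyr61 in cluster 1 was at 1079 CPM in adult (917 to 1261) and 92.4 CPM in EAE cells (30.0 to 216). Within cluster 1 both genes were thus lower in the pooled EAE cells than in the pooled adult cells by more than the counting error, without a test across libraries. The makeup of cluster 1 differed as well. Without the subcluster with choroid plexus markers it kept 24 of 50 adult and 12 of 14 EAE cells. In those cells Nov was at 2060 CPM in adult and 814 CPM in EAE, and Cyr61 at 1273 and 99.3 CPM. Wisp2 followed Nov, with 41.5 CPM in juvenile cluster 1 and 0 UMIs in cluster 2 of juvenile cells.

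**Figure D5:**
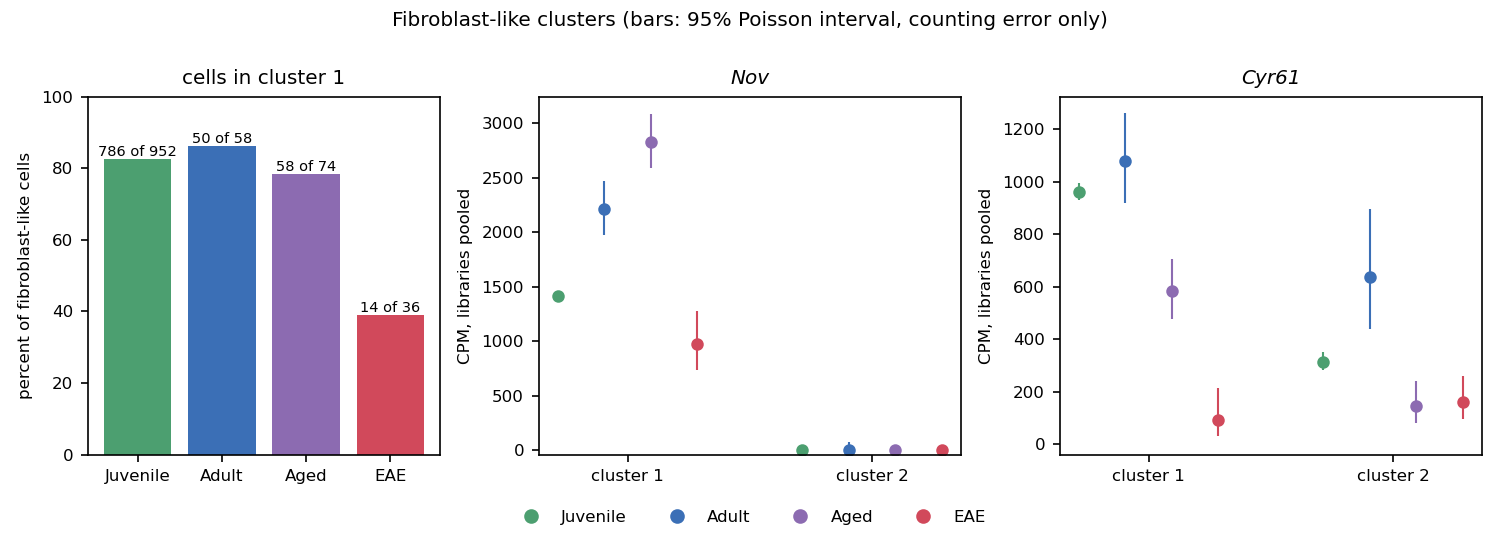
Share of fibroblast-like cells in cluster 1 by group (left, percent) and level of Nov and Cyr61 in both clusters with libraries pooled (CPM, bars for exact 95% Poisson intervals). The share in EAE is 38.9% against 86.2% in adult, Nov is near 0 in cluster 2, and Cyr61 in cluster 1 is at 92.4 CPM in EAE against 1079 in adult.

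With age the CCN genes of fibroblast-like cells did not pass the test. For juvenile against adult edgeR called 0 of 3 members (0.407% of genes), 1 of which, Ctgf, had an unadjusted p under 0.05, and for aged against adult 0 of 3 (0% of genes), 1 of which, Cyr61, had an unadjusted p under 0.05, and DESeq2 called 0 of 3 in both. Ctgf was at 102, 138, 60.6 and 53.8 CPM in juvenile libraries, all below the adult 178, 227 and 251 (log2 fold change -1.28, adjusted p = 0.221). Wisp2 was at 15.3 to 42.7 CPM in juvenile, 14.8 to 143 in adult and 40.2 to 66.7 CPM in aged libraries, with 60.3 and 0 CPM in EAE, and Wisp1 at 17.9 to 30.8, 0 to 14.8, 6.67 to 8.04, and 36.2 and 39.1 CPM in the same order, both too few for a test outside the juvenile libraries, with 0 to 10 UMIs in a library.

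The other genes of the pathways around the CCN family were taken from lists of targets and receptors. Their edgeR counts stand beside the 23.9% of all genes called in EAE, 34.9% in juvenile and 3.27% in aged ECs, and several shares are close to these. The DESeq2 counts are given without a share over all genes and cannot be weighed in this way. Of 18 YAP/TAZ targets tested in EAE ECs, with Ctgf and Cyr61 left out, 5 rose, 1 fell and 12 did not pass, and their median log2 fold change was 0.16 against 0.01 over all genes. Nuak2, a kinase, rose by 2.18 (SE 0.17), from 12.5 to 17.4 CPM in adult to 55.9 to 62.9 CPM in EAE libraries, and Crim1, which binds BMPs and VEGF, by 1.47 (SE 0.19), while Rbms3, an RNA-binding protein, fell by 1.59. DESeq2 called 10 of the 18 YAP/TAZ targets, against 6 by edgeR. Of 6 TGF-beta targets 3 rose and 1 fell (median 0.67), with Tgfbi at 1.98 (SE 0.35) and the inhibitory Smad7 at 1.34 (SE 0.12) among those that rose. Of 11 receptors that bind CCN proteins 3 rose, 1 fell and 7 did not pass (median 0.55), and the integrin subunits Itga6 (1.0, SE 0.11) and Itgav (0.76, SE 0.19) and the proteoglycan Sdc4 (0.55, SE 0.13) were those that rose, and DESeq2 called 2 of the 11 against 4 by edgeR. Of 8 Wnt target genes 2 fell, the Wnt inhibitors Nkd1 (-1.26, SE 0.12) and Notum (-1.08, SE 0.19), and the others did not pass. Of the 15 immediate early and dissociation genes edgeR called 0 and DESeq2 1, with 1 at an unadjusted p under 0.05 and a median of 0.49.

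In juvenile against adult ECs, 2 of 18 YAP/TAZ targets were higher, Rbms3 (2.20, SE 0.25) and the growth factor-binding Igfbp3 (1.45, SE 0.39), and 4 lower, led by Nuak2 (-1.55, SE 0.20), with a median of -0.22 against -0.05 over all genes. Of the TGF-beta targets 2 of 6 were higher, among them Pmepa1 (1.03), and 1 was lower, Smad7 (-0.41). Of the receptors 2 of 11 were higher, led by Itga5 (1.38), and 4 lower, led by Itga6 (-1.34) and Itgb5 (-1.25). The Wnt targets divided into 4 higher, led by Sp5 (1.19), and 2 lower, Lef1 (-1.01) and Axin2 (-0.88), of 8. Of the immediate early and dissociation genes 5 of 15 were lower, led by Hspa1a (-2.31), Btg2 (-1.60) and Jund (-1.17), and the others did not pass. In aged against adult ECs edgeR called 1 gene of these lists, the YAP/TAZ target Rbms3 (-3.29), where DESeq2 called 2 YAP/TAZ and 1 Wnt target, and an unadjusted p was under 0.05 for 3 of the YAP/TAZ targets, 2 of the TGF-beta targets, 2 of the receptors, 3 of the Wnt targets and 0 of the immediate early genes.

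The genes whose log2(CPM + 1) followed each member most closely over 50 means of cell type and group, out of 13973 genes, are given as a description, since the means share libraries. For Cyr61 they were Yap1 (r = 0.79), Il17rc, Abhd14b, Zic2 and Lamb2. For Ctgf they were Rab13 (0.83), Angpt2 (0.79), Ackr3, Nnmt and Angptl4. For Nov they were Sec1 (0.89), Gm5860, Crabp2, Ptgdr and Agtr1b, for Wisp1 Col13a1 (0.81), Lox, Twist1, Adam12 and Alx4, and for Wisp2 Bace2 (0.90), Osr1, Cyp2s1, Lrrn4cl and Col26a1.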

How the data were processed

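The genes and the gene lists were chosen with earlier results of these data known. Per the submitters' processing notes, reads were handled with bcl2fastq 2.19.1.403, UMI-tools 0.5.3, STAR 2.5.3a (mm10) and featureCounts 1.6.1, and the authors deposited whole-number UMI counts per gene and cell barcode, not normalized. Following the study's methods, a barcode was kept if it had over 500 but below 6000 detected genes and a mitochondrial share below 25%. Counts were scaled to 10000 per cell, logged and clustered (scanpy 1.11.5, Python 3.11.15, Leiden, 2000 variable genes, 30 principal components, resolution 1.0) with the 5 CCN genes left out. Clusters were named from marker genes, with limits set after the clusters had been seen, and 2.05% of ECs, 8.42% of mural and 4.27% of fibroblast-like cells with markers of another type were set aside. Scrublet marked 818 cells (1.62%) as doublets, 23 of them in these cell types, which were kept. Pairs of libraries shared 10 to 113 barcodes.

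UMIs were summed per cell type and sample with at least 10 cells. Libraries of a group were joined to 1 sample by a chi-square ratio of their counts, relative to that between the odd and even cells of the same libraries. It had to be under 1.35 in both ECs and microglia, a limit chosen after the ratios had been seen. The EC ratio was 1.40 for the EAE pair and 1.77 for the aged pair, which were kept apart, and 7.51 to 19.0 for the other pairs not joined. The microglia ratio was 1.37 for the EAE pair and 1.23 for the aged pair. Sums were tested with edgeR 4.0.16 (R 4.3.3, TMM, filterByExpr, robust quasi-likelihood, two-sided, Benjamini-Hochberg over all genes tested, called under 0.05). Groups were compared in 1 fit of all 4 groups per cell type, cell types with the sample as a block, and the difference of changes as cell type by group. Only the fits between groups and between cell types were run on simulated data, with well-counted genes changed and a spread fixed in advance. The fits of subsets and of the difference of changes were not. The standard error is the log2 fold change divided by the square root of the F statistic. Shares of cells were taken after thinning to 1500 UMIs. Genes named beside the members were the 5 closest in pattern to each (cell type by group means, at least 20 CPM in one of them) and, from each list, the 3 called genes of largest fold change in ECs, of which 1 is not reported here. Alternatives were RLE size factors, DESeq2 1.42.0, no filter on low counts, other groupings of libraries, doublets left out, cells named by their own marker score, the replicate number as a block, no sample block, each library left out and, added after the data had been seen, EC subsets alone, cell types without the juvenile libraries and fibroblast-like cells without a subcluster with choroid plexus markers.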

Additional observations from a re-analysis of the deposited data

Results flagged for a closer look

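Wisp1 was also found outside ECs, mural and fibroblast-like cells, in T and NK cells of the EAE libraries. Its levels there were below those given above for juvenile mural and EAE fibroblast-like cells. EAE 1 had 43 Wisp1 UMIs in 28 of 925 T/NK cells (11.9 CPM, 3.03% of cells, exact 95% interval 2.02% to 4.35%) and EAE 2 had 32 UMIs in 26 of 859 cells (9.19 CPM, 3.03%, 1.99% to 4.40%). The 9 other libraries had 0 UMIs in 10 to 191 T/NK cells, where a count of 0 allows levels of up to 6.02 to 85.0 CPM, and microglia of the EAE libraries had at most 0.201 CPM. In the 7 libraries whose limit lies above 11.9 CPM, each taken alone, a level like that in EAE could not be told from 0. Libraries of a group were not pooled for these limits, and the difference between groups was not tested. Intervals and limits cover counting error only.

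The changes that differed between mural cells and ECs were those of Ctgf and Wisp1. The log2 fold change of juvenile against adult cells was higher in mural cells than in ECs by 1.96 for Ctgf and 4.54 for Wisp1, and that of EAE against adult cells was lower in mural cells by -2.64 for Ctgf, each past the threshold of the edgeR test of the difference itself. DESeq2 did not call the juvenile Ctgf difference. The Wisp1 value rests on 3 UMIs in adult mural cells. The SEs of the Ctgf differences may understate the spread between mural samples.

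In 39 groups of 4 juvenile libraries, 5 had a library far from the rest. Chance gives about 1 in 20 among independent libraries, but these 4 form 2 near-identical pairs and the groups share cells, so that rate does not apply as it stands. Juvenile 1 had Cyr61 at 426 CPM in arterial ECs against 345 to 353 in the others. Juvenile 3 had Nov at 7.28 CPM in venous ECs against 1.48 to 2.42. Juvenile 4 had Nov at 0 CPM in smooth muscle, in 15 cells, against 22.7 to 26.2. Juvenile 2 had Wisp1 at 1.61 CPM in all ECs against 1.15 to 1.21, and at 5.92 CPM in arterial ECs against 9.0 to 9.56, and apart from Cyr61 these rest on 0 to 11 UMIs in a library.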

How the results depend on the processing

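Of 1092 recomputed values, 982 kept their direction and side of the threshold, 38 lost a call, 31 gained one and 41 turned direction. Of those that turned 1 had been past the threshold, Wisp2 in mural cells against ECs, which was -2.33 (SE 4.37, from 0 mural UMIs) without the juvenile libraries, and 1 was past it after turning, Nov in juvenile capillary ECs (adjusted p = 0.043). Ctgf in EAE ECs and the difference of its EAE change between mural cells and ECs were past the threshold in each alternative run. The difference was not run with cells named by marker score. Every group had 2 samples, and where a library left out leaves a group with 1, its spread is taken from the other groups. Few UMIs limit Wisp1 and Wisp2, and few cells limit adult, aged and EAE fibroblast-like cells. The cause of the changes below was not tested.

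The replicate number as a block, with every library on its own, gave 1 call among juvenile mural cells against 0 (Ctgf, 0.98), and Cyr61 in aged mural cells at -0.25 and Nov in aged fibroblast-like cells at 0.12. It changed the side of the threshold for 1 more member, Nov in juvenile ECs (-1.35, adjusted p = 0.031). Same-numbered libraries deviated together with correlations of -0.19 to 0.09 over 13 pairs, so the numbers do not pair the libraries.

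The number of CCN genes called was 2 in juvenile ECs and became 1 with all near-identical pairs summed (Nov, with Ctgf and Wisp1 both lost), cells named by marker score, arterial ECs or venous ECs, in aged ECs 0 became 1 with DESeq2 or without the filter, and in EAE ECs 2 became 1 in arterial or capillary ECs. Without the filter it was 3 in juvenile mural cells, and 1 with all near-identical pairs summed. In EAE fibroblast-like cells 2 became 0 with all near-identical pairs summed, which leaves 1 EAE sample, and 1 by marker score. Without the sample block the counts were 1 for mural cells against ECs and 1 for fibroblast-like cells against ECs, both 3 before, 1 for fibroblast-like against mural cells, 0 for arterial against capillary ECs and 1 for smooth muscle against pericytes. Fibroblast-like against mural cells gave 4 with DESeq2 and 1 without the filter or with all near-identical pairs summed, venous against capillary ECs 1 with DESeq2, 2 without the filter and 1 with every library on its own, and smooth muscle against pericytes 5 without the filter. Without the juvenile libraries mural cells against ECs and smooth muscle against pericytes each gave 1 call, Cyr61. Calls were also gained, Nov in juvenile ECs with DESeq2, without the filter and with every library on its own. In EAE ECs Cyr61 was gained with DESeq2 or without the filter, and Wisp1 with every library on its own. The counts in this paragraph stand without the share of all genes called in the same setting. The number of all genes called moved between settings as well. The difference of changes gave 1 call for juvenile with DESeq2, which lost Ctgf, and 2 for EAE with every library on its own. Leaving out each library in turn gave 1 to 3 calls in juvenile ECs, 0 to 1 in aged ECs, 1 to 3 in EAE ECs, 0 to 1 in juvenile mural cells, 0 to 2 in EAE fibroblast-like cells, 1 to 3 for fibroblast-like against mural cells, 0 to 1 for venous against capillary ECs, 2 to 3 for arterial against capillary ECs, 2 to 3 for the juvenile and 1 to 2 for the EAE difference of changes.

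Log2 fold changes that turned were, in capillary ECs alone, 0.15 for Cyr61 and 1.91 for Nov (juvenile), 0.26 for Nov (aged) and 0.0012 for Wisp1 (EAE), and -0.68 for Cyr61 in arterial ECs (EAE). In mural cells Cyr61 was -0.15 with every library on its own and -0.012 by marker score (juvenile) and 0.35 by marker score (EAE), and Ctgf in EAE, at -0.0021, became 0.014 with RLE, 0.013 with DESeq2, 0.022 with all near-identical pairs summed, 0.066 without doublets and 1.64 by marker score. In fibroblast-like cells Cyr61 was 0.034 without the filter (juvenile), Ctgf 0.83 by marker score (aged) and Nov 0.048 without the filter and 0.13 with every library on its own (aged), Ctgf against ECs was -0.17 without the sample block, and Cyr61 in venous against capillary ECs was 0.057 without the juvenile libraries. Leaving out libraries gave -1.20 to 0.081 for Nov in aged ECs, -0.56 to 0.50, -1.24 to 0.91 and -0.88 to 0.34 for Cyr61 in juvenile, aged and EAE mural cells, -0.84 to 0.55 for Ctgf in EAE mural cells, -0.64 to 0.10 for Cyr61 in juvenile, -0.85 to 0.0017 for Ctgf and -0.36 to 0.70 for Nov in aged fibroblast-like cells, and -0.64 to 0.045 for Nov in venous against capillary ECs.

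The mean share of ECs with a Ctgf UMI was 4.62%, 8.02%, 5.85% and 31.3% in juvenile, adult, aged and EAE libraries, 18.1%, 15.6%, 9.20% and 42.3% without thinning, and 3.21%, 4.16% and 25.3% in juvenile, aged and EAE libraries at 1000 UMIs, with 4.19% to 5.01%, 6.71% to 8.89%, 5.16% to 6.55% and 29.5% to 33.2% when libraries were left out. Over the alternatives the genes called ranged from 2705 to 6668 in juvenile, 2 to 1558 in aged and 641 to 4424 in EAE ECs, against 4913, 460 and 3372.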

Other observations

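Tip-like ECs, named from markers such as Apln, Esm1 and Angpt2, were found in juvenile and EAE libraries. They come from separate clusterings and are not one cluster, the juvenile one led by Madcam1, Chst1, Apod and Angpt2 and the EAE one by Tubb6, Angpt2, Errfi1 and Lrrc32, with Apln and Esm1 not among the leading genes in EAE. They had Cyr61 at 608, 552, 446 and 518 CPM in juvenile and 1580 and 1576 CPM in EAE libraries, and Ctgf at 83.0, 73.2, 53.3 and 24.9 CPM in juvenile and 357 and 382 CPM in EAE libraries. The groups did not overlap for either gene, and the difference was not tested.

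Wisp2 outside ECs, mural and fibroblast-like cells was mainly ependymal. The ciliated ependymal cells that line the ventricles held 112 of its 420 UMIs, at 8.59 to 60.6 CPM over 6 libraries, next to 42.7 CPM as the median of fibroblast-like cells. Perivascular macrophages, B cells, neutrophils and neurons had 0 Wisp2 UMIs.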
